A study of Homo sapiens with 12 samples.

Results

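The 10 genes described here encode the kinases, cyclins and checkpoint proteins that carry a cell from G1 into S phase, and were found by symbol (10 of 58051 counted genes): CDK6, CDK4, CDK2, CCND1, CCND2, CCND3, CCNE1, CCNE2, CDKN1B and RB1. They were measured by RNA-seq in 12 libraries from 3 established human renal carcinoma cell lines. The clear cell lines 786-O (a single library for each treatment) and A-498 (2 for each) received a miR-29 mimic, a synthetic duplex that adds miR-29 activity, or a control mimic. The ACHN line (3 per group) received a miR-29 inhibitor, which blocks the miRNA of the cell, or a control inhibitor. All cells were reverse-transfected at 10 nM and RNA was taken at 48 h. Each group is a single purchased line in culture. The study's methods call the libraries of a group biological replicates, without saying how the cultures were separated, so that p-values measure the spread between such cultures of 1 line. The study left further A-498 libraries out for doubtful labels, and they were not analysed here.

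In G1, mitogens raise the D-type cyclins (CCND1, CCND2, CCND3), which bind and activate CDK4 or CDK6. These kinases phosphorylate the retinoblastoma protein RB1, which otherwise holds E2F transcription factors back, and the E-type cyclins (CCNE1, CCNE2) with CDK2 complete that phosphorylation, while the inhibitor p27 (CDKN1B) restrains CDK2. miR-29 is a family of miRNAs that pair through a shared seed with the 3′ UTR of target transcripts, and CDK6 is among its long-known targets.

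The mature sequences of the family are shown to make plain the seed that the sites below have to match. Sequences are from RefSeq (GRCh38.p14), 5′ to 3′, with the seed (nucleotides 2 to 8) in capitals, and the 3 members share it.
miR-29a-3p: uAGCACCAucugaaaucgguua
miR-29b-3p: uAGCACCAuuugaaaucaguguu
miR-29c-3p: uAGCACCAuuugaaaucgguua

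The 3′ UTRs of 3 of the 10 genes held a full match to the seed, read from GRCh38 along the GENCODE v44 canonical transcripts. The match searched was TGGTGCT on the transcript strand, in capitals below. CDK6 (ENSG00000105810) had 2 matches, 8707 and 9138 nt after the stop codon, near the far end of a 3′ UTR of 10219 nt. CCND2 (ENSG00000118971) had 2, at 906 and 2559 nt of 5344 nt, and CDK2 (ENSG00000123374) had 1, at 426 nt of 1164 nt. These 5 windows are shown because the 3 genes are the ones whose changes are followed most closely below.
CDK6 first site, chr7:92606427-92606433, minus strand: gcttgtccacaTGGTGCTctccatcttcc
CDK6 second site, chr7:92605996-92606002, minus strand: atgctctgtttTGGTGCTttgagttctgc
CDK2 site, chr12:55972051-55972057, plus strand: gggggctaagtTGGTGCTtttgagaacca
CCND2 first site, chr12:4300915-4300921, plus strand: aaactaattttTGGTGCTgattggcatgt
CCND2 second site, chr12:4302568-4302574, plus strand: agcagcgtttaTGGTGCTtccttctccct

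Shorter matches lay in 4 of the genes. GGTGCTA, which pairs with nucleotides 2 to 7 and is followed by A, was found once in CDK6 (9889 nt after the stop codon) and once in CCNE1 (260 nt), whereas CCND1 (57 nt) and CDKN1B (730 nt) had GGTGCT alone. None of these matches was found in CDK4, CCND3, CCNE2 or RB1. Over 19534 protein-coding genes, 14.0% had TGGTGCT in the canonical 3′ UTR, whose median length was 1064 nt. A match is a description of the letters and not evidence of a working site, and the isoforms that these cells use were not measured.

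**Figure D1:**
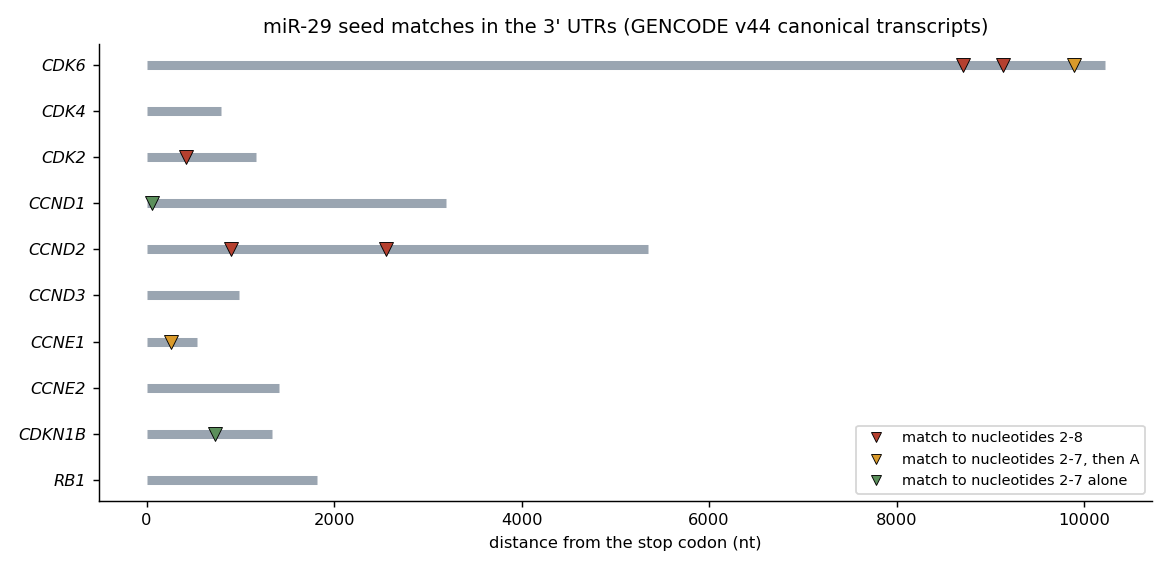
Seed matches of miR-29 along the 3′ UTR of each of the 10 genes. The horizontal axis is the distance from the stop codon in nt, grey bars span the canonical 3′ UTR and triangles mark matches, with the 2 full matches of CDK6 at 8707 and 9138 nt and that of CDK2 at 426 nt.

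In GRCh38, CDK6 lies at chr7:92604921-92836573, CDK4 at chr12:57747727-57756013, CDK2 at chr12:55966781-55972789 and CCND1 at chr11:69641156-69654474. CCND2 lies at chr12:4269771-4305353, CCND3 at chr6:41934934-42050357 and CCNE1 at chr19:29811991-29824312. CCNE2 lies at chr8:94879770-94896678, CDKN1B at chr12:12685498-12722369 and RB1 at chr13:48303744-48599436. All are protein-coding genes, and counts cover their exons.

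Reads in genes numbered 39919554 to 70027392 per library, and in ACHN the 3 inhibitor libraries (at least 52369886) were all deeper than the 3 controls (at most 48626762). Reads not assigned to a gene were 45.7% to 48.0% in 786-O, 37.2% to 39.0% in A-498 and 38.6% to 40.6% in ACHN. Their part in differences between lines was not tested. Levels are given as CPM, the counts-per-million scale of reads in genes, with TMM factors over the 12 libraries. The labels were set against a list of miR-29 targets taken from general knowledge. Earlier results of these data were known when it was chosen, so it is not an independent check. Of 12 tested, 11 were lower with the mimic in A-498 (27% of all genes) and 12 higher with the inhibitor in ACHN (17.3%). In 786-O, 10 of 12 were at least 2-fold lower with the mimic (8.96% of all genes). Of the markers listed for renal origin, PAX8, PAX2, KRT8, KRT18 and VIM were above 1 CPM in every library. However, CA9, a marker of clear cell carcinoma, stayed under 1 CPM in 8 libraries, 786-O included (at most 0.319 CPM). VIM is not specific to epithelium. At 1538 CPM or more it exceeded PAX8 (at most 651 CPM) and PAX2 (at most 47.2 CPM), so the summed renal markers below weigh VIM more than these. Leukocyte PTPRC and endothelial PECAM1 and VWF were under 1 CPM in all 12 libraries, and muscle DES reached 4.45 CPM in A-498. In bulk RNA, fewer cells in a phase of the cycle and less RNA per cell cannot be told apart.

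The control libraries of the 3 lines differed in which G1 genes stood highest. To compare genes of unequal length, levels were divided by exon length in kilobases. In the 786-O control, CDK6 led the 10 genes at 95.3 CPM per kb, ahead of CDK4 (43.4), CCND1 (33.8), RB1 (19.8) and CDK2 (14.1). In the A-498 controls the leaders were CDK4 (66.9 ± 0.0715 CPM per kb, SD, n = 2) and CCND1 (52.8 ± 0.584), and CDK6 stood at 20.5 ± 2.11. In the ACHN controls CDK4 again led (125 ± 2.38 CPM per kb, SD, n = 3), followed by CCND1 (62.0 ± 1.71), CDK6 (56.1 ± 3.37), CDK2 (40.5 ± 1.71) and CCND2 (30.8 ± 0.518). CDKN1B, CCNE1 and CCNE2 lay in the lower part of the order in each line, at 3.69 to 13.4 CPM per kb. Neighbours in the order were compared in A-498 and ACHN, since the single control library of 786-O gives no SD. The gap was within the larger SD only for RB1 and CCNE1 in A-498 (13.6 ± 0.694 and 13.4 ± 0.102 CPM per kb). With the longest transcript as the length, CCND3 moved up to the third place in A-498, and CDK2 passed CDK6 in ACHN. Lower in the order, CDKN1B passed CCNE2 in 786-O, and in ACHN CCND3 passed RB1 and CDKN1B passed CCNE1.

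CCND2, the D-type cyclin with 2 full seed matches, had more than 1 read in ACHN libraries only. No read fell in it in either 786-O library, in either A-498 control or in the first A-498 mimic library, and 1 read fell in the second. In the ACHN controls it had 243, 251 and 243 CPM. Taking 3 counts per library as the limit that a count of 0 allows, the ACHN control mean was at least 3583-fold higher than in the 786-O control and at least 4637-fold higher than in the A-498 controls. A limit of this kind covers counting error only. The inhibitor genes CDKN2A (p16) and CDKN2B (p15), which restrain CDK4 and CDK6, were singled out after their values were seen. Neither had a read in the 6 libraries of 786-O and A-498, and in the ACHN controls they stood at 0.723 ± 0.126 and 8.99 ± 0.579 CPM (SD, n = 3).

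Between the controls of A-498 and ACHN, 8 of the 9 genes other than CCND2 differed at an adjusted p under 0.05 in edgeR's quasi-likelihood test. Of these 9, 5 were lower in A-498 (background over all genes tested 38.7%) and 3 were higher (background 41.0%). CCND2, without reads in the A-498 controls, passed the filter only through ACHN and was not counted. In either direction 79.8% of all genes differed, so that a difference of this kind was common. CDK6 had 233 and 269 CPM in the A-498 controls against 670, 733 and 656 CPM in ACHN, a log2 difference of -1.41 (SE 0.0553, edgeR adjusted p = 3.30e-15). CDK4 (-0.86), CDK2 (-0.78), CDKN1B (-0.28) and CCND1 (-0.19) were also lower in A-498. CCNE1 was higher in A-498, with 33.2 and 32.8 CPM against 17.7 to 18.5 CPM, a log2 difference of 0.91 (edgeR adjusted p = 3.72e-12). CCND3 was higher by 0.51 and CCNE2 by 0.17 on the log2 scale, but the call for CCNE2 was lost in DESeq2 (adjusted p = 0.0516), without A-498 control 3 (value 0.11, edgeR adjusted p = 0.133) and without ACHN control 2 (0.0660). RB1 differed by -0.10 (95% interval -0.20 to -0.0036, edgeR adjusted p = 0.0534), and passed the threshold without A-498 control 3 (0.0151), without ACHN control 2 (0.0490) and without ACHN control 3 (0.0192). The 2 groups received different control reagents, so line and reagent cannot be told apart.

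**Figure D2:**
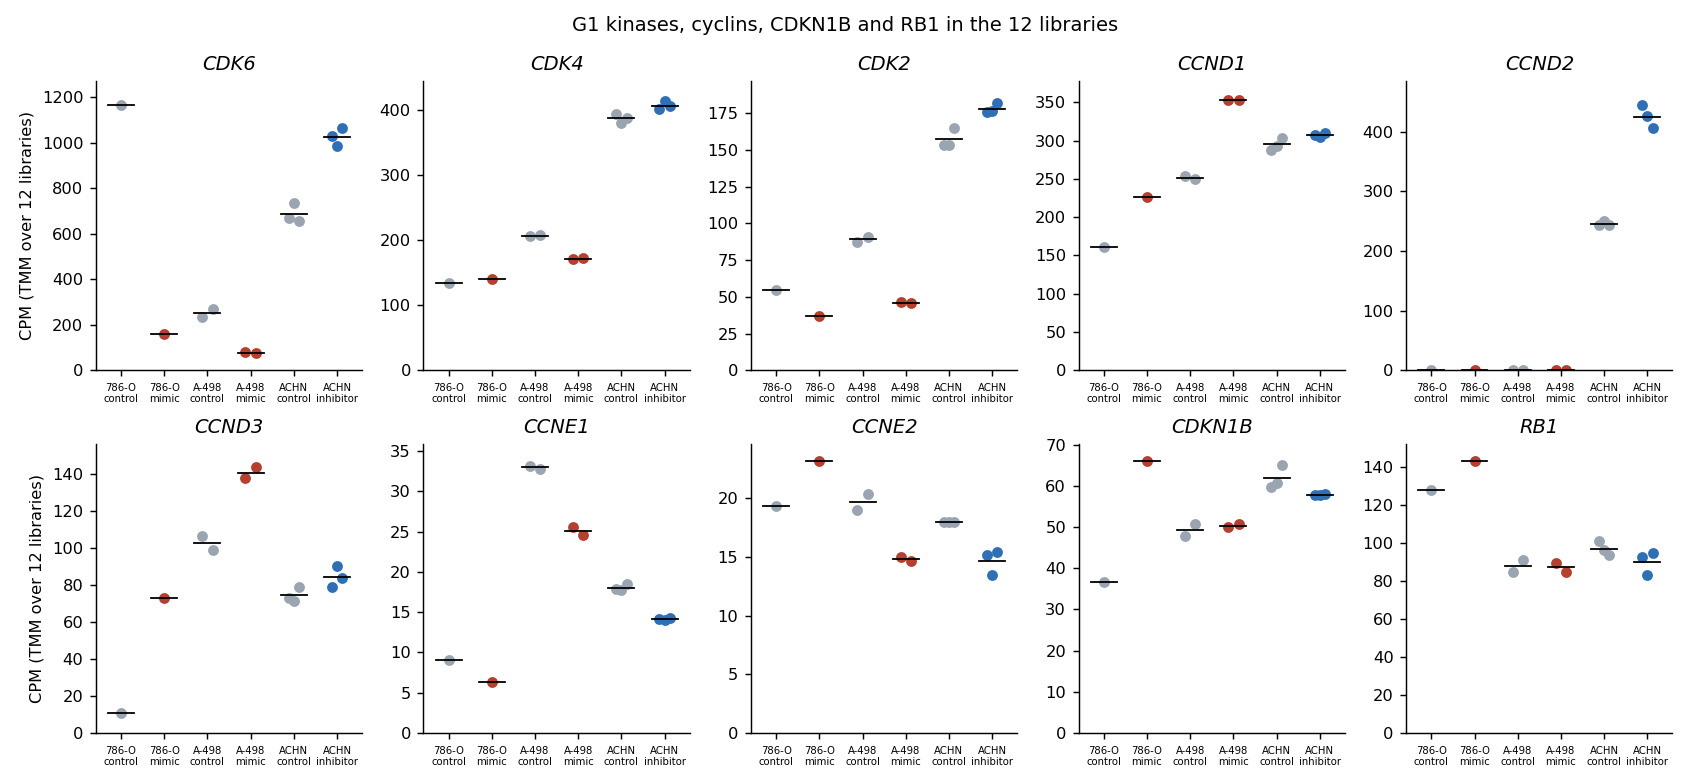
Level of each of the 10 genes in the 12 libraries, in CPM on linear axes from 0, with 1 point per library and a line at the group mean. The CDK6 points of the mimic libraries lie below their controls in 786-O and A-498 and those of the inhibitor above their controls in ACHN, and CCND2 is at or near 0 outside ACHN.

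Adding miR-29 to A-498 lowered the kinases and E-type cyclins and raised 2 D-type cyclins. Of the 9 genes that passed the filter on low counts, 5 fell (background over all genes tested 27%) and 2 rose (background 25.5%) at an adjusted p under 0.05, while 52.5% of all genes passed in either direction. The rises were thus near the all-gene share. The median log2 fold change of the 9 was -0.27, beside 0.0045 over all 19676 genes tested. CCND2 did not pass the filter. The summed renal markers moved with the mimic in the same libraries, from 3457 to 3634 CPM in the controls to 4787 to 4919 CPM, with 5 of 6 markers higher and none lower. DES, the muscle marker, fell (log2 fold change -1.60). The part of these markers in the changes of the 10 genes was not tested.

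CDK6, the kinase with 2 full seed matches, changed most. It had 233 and 269 CPM in the A-498 controls and 78.5 and 74.7 CPM with the mimic. Both mimic libraries were far below both controls. This was a fall of 3.28-fold, a log2 fold change of -1.72 (SE 0.0566, edgeR adjusted p = 1.21e-11). CDK2, the partner of the E-type cyclins with 1 full match, had 87.5 and 91.1 CPM in the controls and 46.3 and 45.9 CPM with the mimic. These groups did not overlap, and the fall was 1.94-fold (log2 fold change -0.96, SE 0.0450, edgeR adjusted p = 4.42e-10). CDK4, without a match, went from 207 and 207 CPM to 171 and 173 CPM, a smaller fall of 1.21-fold (log2 fold change -0.27, edgeR adjusted p = 2.00e-05).

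The cyclins separated by type. CCND1 rose from 253 and 249 CPM to 353 and 354 CPM (log2 fold change 0.49, SE 0.0354, edgeR adjusted p = 3.74e-08). CCND3 rose from 106 and 98.96 CPM to 137 and 144 CPM (log2 fold change 0.45, SE 0.0457, edgeR adjusted p = 1.27e-06). Both D-type cyclins were higher in each mimic library than in either control. CCNE1 fell from 33.2 and 32.8 CPM to 25.5 and 24.5 CPM (log2 fold change -0.40, SE 0.0552, edgeR adjusted p = 2.76e-05). CCNE2 fell from 19.0 and 20.3 CPM to 15.0 and 14.6 CPM (log2 fold change -0.41, SE 0.0659, edgeR adjusted p = 0.000109). The E-type cyclins thus moved opposite to the D-type cyclins, and none of the 4 groups of values overlapped with its control. How often groups separate over all genes was not counted, so a lack of overlap here and elsewhere is a description only.

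The 2 restraining genes gave no call in A-498. CDKN1B had 47.9 and 50.8 CPM in the controls and 50.01 and 50.7 CPM with the mimic (log2 fold change 0.027, 95% interval -0.078 to 0.13). RB1 had 84.5 and 90.8 CPM in the controls and 89.3 and 84.6 CPM with the mimic (log2 fold change -0.013, 95% interval -0.11 to 0.088). The values of mimic and control overlapped for both genes. Leaving out any 1 of the 4 libraries left 5 genes called lower and 2 higher.

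**Figure D3:**
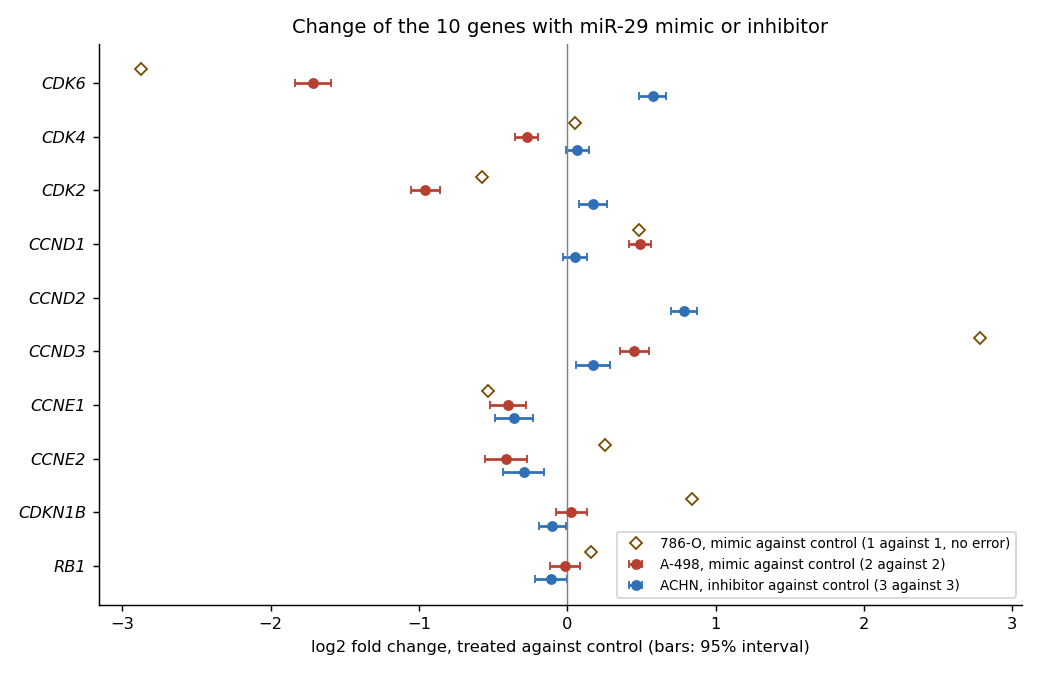
Log2 fold change of the 10 genes, treated against control, with 95% intervals for A-498 and ACHN and open diamonds without error for 786-O, where each group is 1 library. CDK6 lies at -1.72 with the mimic in A-498 and at 0.58 with the inhibitor in ACHN, whereas CCND3 in 786-O lies at 2.79.

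Blocking miR-29 in ACHN raised the 3 genes with a full seed match, and also CCND3, which has no match. Whether the matches took part was not tested. Of the 10 genes, 4 rose (background 17.3%) and 2 fell (background 14.4%) at an adjusted p under 0.05, while 31.7% of all genes passed in either direction. The median log2 fold change of the 10 was 0.061, beside 0.0038 over all 17904 genes tested. The summed renal markers moved here as well, from 5088 to 5511 CPM in the controls to 4124 to 4324 CPM with the inhibitor, with 4 of 5 tested markers lower and none higher. Their part and that of the unequal depth in the changes below were not tested.

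CCND2 changed most in ACHN. It went from 243, 251 and 243 CPM to 444, 426 and 406 CPM. All 3 inhibitor libraries were above all 3 controls, and the rise was 1.72-fold (log2 fold change 0.79, SE 0.0420, edgeR adjusted p = 1.09e-10). CDK6 had 670, 733 and 656 CPM in the controls and 1027, 985 and 1064 CPM with the inhibitor, again without overlap. This was a rise of 1.49-fold (log2 fold change 0.58, SE 0.0432, edgeR adjusted p = 1.16e-08). CDK2 rose less, from 153, 154 and 165 CPM to 176, 177 and 182 CPM (log2 fold change 0.18, SE 0.0443, edgeR adjusted p = 0.00502), and its groups did not overlap.

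CCNE1 and CCNE2 fell in ACHN too. CCNE1 went from 17.8, 17.7 and 18.5 CPM to 14.1, 14.0 and 14.2 CPM (log2 fold change -0.36, SE 0.0607, edgeR adjusted p = 0.000167). CCNE2 went from a narrow 18.0, 18.0 and 18.0 CPM to 15.2, 13.5 and 15.4 CPM (log2 fold change -0.29, SE 0.0659, edgeR adjusted p = 0.00208). The E-type cyclins were thus lower with the mimic in A-498 and lower with the inhibitor in ACHN, reagents of opposite action given to different lines.

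Of the other 5 genes in ACHN, CCND3 was called higher by about as much as CDK2 (0.17 and 0.18), and 4 gave no call. CCND3 had 73.0, 71.5 and 78.8 CPM in the controls and 78.7, 90.3 and 83.5 CPM with the inhibitor, so that the groups overlapped. The log2 fold change of CCND3 was 0.17 (SE 0.0543, edgeR adjusted p = 0.0204), and the call was lost without control 1 (edgeR adjusted p = 0.0812), without control 2 (0.112) and without inhibitor 2 (0.0827, value 0.11). CDK4 (0.067, 95% interval -0.0096 to 0.14) and CCND1 (0.054, 95% interval -0.028 to 0.14) gave no call, although the inhibitor libraries lay above the controls for both. CDKN1B (-0.10, 95% interval -0.19 to -0.0093) gave none after adjustment (edgeR adjusted p = 0.0884), with 57.8 to 58.0 CPM under the inhibitor against 59.9 to 65.2 CPM. RB1 (-0.11, 95% interval -0.22 to 0.0016) overlapped between the groups, with 83.0 to 94.7 CPM against 93.6 to 101 CPM.

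In 786-O each value compares 1 library with 1, so the differences have no replicate check and no test. The 2 largest were those of CDK6 and CCND3. CDK6 had 1167 CPM in the control (51023 counts) and 159 CPM with the mimic (6975 counts), a log2 ratio of -2.88 (95% counting interval -2.91 to -2.84). By absolute ratio this was place 17 among 11195 genes with at least 5 CPM in either library. CCND3 had 10.5 CPM in the control (460 counts) and 73.1 CPM with the mimic (3203 counts), a log2 ratio of 2.79 (95% counting interval 2.65 to 2.93), which was place 2 among the rises. Counting intervals cover counting error only. The genes on either side of CCND3, chosen after its value was seen, had log2 ratios of 0.10 (BYSL, with 1578 and 1702 counts) and 0.54 (TAF8, with 1360 and 1984 counts), and MED20, next to BYSL, had -1.30 (2370 and 964 counts).

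At least 2-fold, 1 of the 9 genes with reads was lower in 786-O (background 8.96%) and 1 was higher (background 6.73%). The summed renal markers were 5238 CPM in the control and 6601 CPM with the mimic, and their part in these ratios was not tested. CDKN1B, which encodes p27, had 36.7 and 66.1 CPM in control and mimic (log2 ratio 0.84). CCND1 had 161 and 226 CPM (0.48), CCNE2 19.4 and 23.2 CPM (0.26), RB1 128 and 143 CPM (0.16) and CDK4 134 and 140 CPM (0.052). CDK2 had 54.9 and 37.0 CPM (-0.57) and CCNE1 9.08 and 6.27 CPM (-0.53). The lower values with the mimic were thus those of CDK6, CDK2 and CCNE1.

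Whether the mimic acted differently in the 2 lines was tested as an interaction over the 6 libraries, in which only the A-498 libraries supply the spread. The difference below is the log2 fold change in 786-O minus that in A-498, and it uses the same libraries as the separate comparisons above. Of 9 genes tested, 1 was more strongly lowered or less raised in 786-O (background 13.2%) and 6 had the opposite difference (background 16.5%, and 29.6% in either direction). CDK6 differed by -1.12 (SE 0.0868, edgeR adjusted p = 6.38e-09) and CCND3 by 2.39 (SE 0.0996, edgeR adjusted p = 8.29e-13). CDKN1B differed by 0.86, CCNE2 by 0.71, CDK2 by 0.43 and CDK4 by 0.37. RB1 differed by 0.22 (edgeR adjusted p = 0.0435), and its call was lost under 3 of the other scalings and filters and without A-498 control 3, mimic 1 or mimic 2 (values 0.086, 0.18 and 0.18), while that of CDK4 was lost without A-498 mimic 1 (0.28, edgeR adjusted p = 0.0551). CCND1 (0.040, 95% interval -0.098 to 0.18) and CCNE1 (-0.091, 95% interval -0.38 to 0.20) gave no call. With the biological coefficient of variation set to 0.2 in place of the estimate, CCND3 alone was called among the 9.

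The balance of CDK6 and CDK4, the alternative partners of the D-type cyclins, shifted in opposite directions with mimic and inhibitor. Over counts per kb, CDK6 made up 68.7% of the sum of both in the 786-O control and 22.4% with the mimic. In A-498 it made up 22.2% and 24.7% in the controls and 10.4% and 9.85% with the mimic, a difference of means of -13.3 percentage points. The exact permutation test (two-sided) gave p = 0.333, the smallest that 2 against 2 libraries allow. In ACHN the share was 30.05%, 32.8% and 29.9% in the controls and 39.3%, 37.6% and 39.9% with the inhibitor, a difference of 7.99 percentage points (exact permutation p = 0.1, the smallest that 3 against 3 allow). The groups did not overlap in either line. Without length scaling the A-498 difference was -23.9 percentage points.

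Among the D-type cyclins, CCND1 supplied the largest share of the counts per kb in every library, at 48.2% to 94.9%. This order depends on the length scaling, since without it CCND2 led in the ACHN inhibitor libraries (mean 52.0% against 37.6% for CCND1). With the longest transcript as the length, the mean CCND3 share was 20.7% under the ACHN inhibitor and 41.3% under the A-498 mimic. In ACHN the share of CCND2 was 29.4%, 29.8% and 28.2% in the controls and 41.6%, 40.1% and 39.0% with the inhibitor. That of CCND1 went from 58.4%, 58.5% and 59.1% to 48.2%, 48.2% and 49.9%. Neither gene's groups overlapped, and both tests gave the smallest possible value (exact permutation p = 0.1, two-sided). The 2 shares belong to 1 sum, so these tests are not independent. The level of CCND1 itself did not fall in ACHN and gave no call (log2 fold change 0.054). The share of CCND3 in ACHN was 12.2% ± 0.449 in the controls and 11.03% ± 0.790 with the inhibitor (SD, n = 3, exact permutation p = 0.2). In A-498 the shares of CCND1 (74.8% ± 0.738 and 75.3% ± 0.543, SD, n = 2) and CCND3 differed by 0.504 and -0.505 percentage points (exact permutation p = 0.667 for both). In 786-O the share of CCND3 was 5.13% in the control and 21.1% with the mimic, and CCND1 made up the rest.

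**Figure D4:**
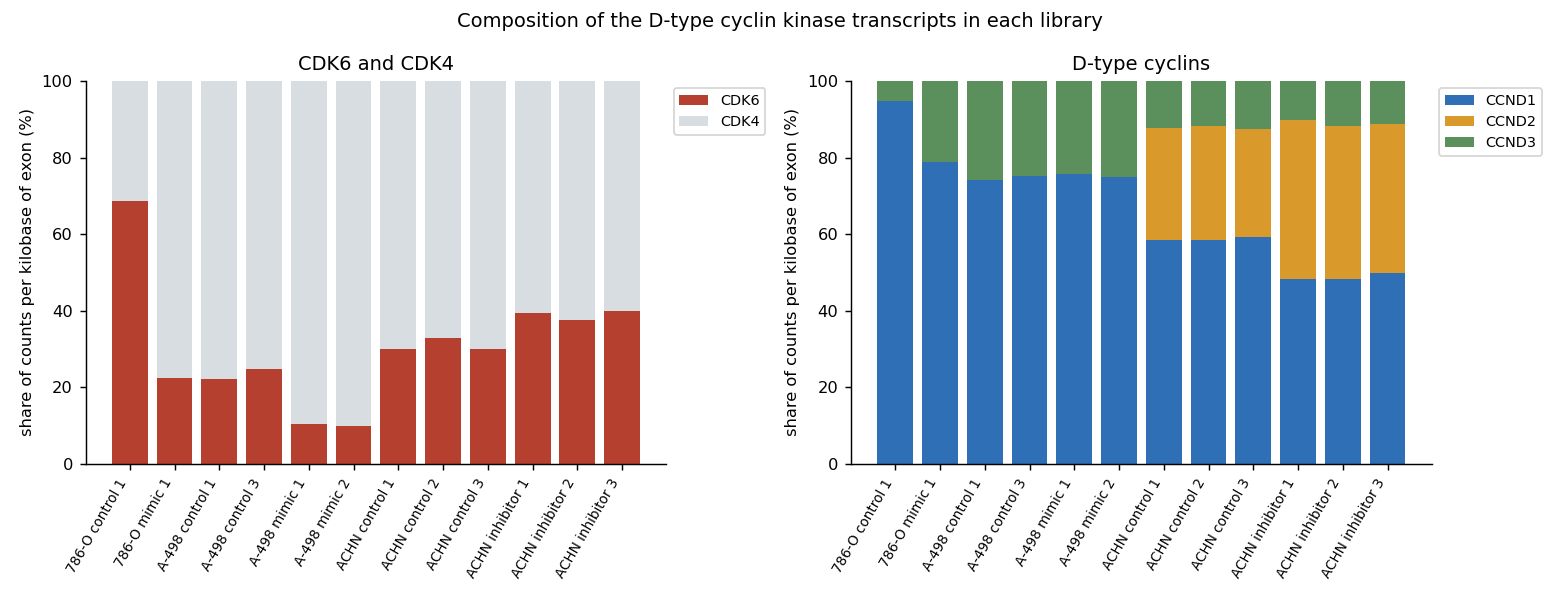
Share of CDK6 and CDK4 in their sum (left) and of the 3 D-type cyclins in theirs (right), in percent of counts per kilobase of exon, 1 bar per library. The CDK6 share drops from 68.7% to 22.4% in 786-O, and CCND2 appears only in the ACHN bars, at 28.2% to 41.6%.

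The p-values of the shares come from a family of 8 tests, counting that of CCND2 in A-498, which rests on 1 read. None of the 8 can pass 0.05 at these numbers of libraries.

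The rest of the G1/S pathway is given by lists chosen with earlier results of these data known. Each count stands against the shares over all genes tested, which were 27% for falls and 25.5% for rises in A-498. In ACHN they were 14.4% for falls and 17.3% for rises. Among the other CDK inhibitors, 2 of 4 tested genes fell and 1 rose with the mimic in A-498, while 2 of 6 rose and none fell with the inhibitor in ACHN. CDKN2C (p18), which binds CDK4 and CDK6, fell from 56.2 ± 0.810 to 21.4 ± 0.0814 CPM in A-498 (SD, n = 2, log2 fold change -1.39, edgeR adjusted p = 3.49e-11) and rose by 0.31 in ACHN. With the mimic in 786-O the log2 ratio of CDKN2C was -0.0023, so that no fall was seen there. CDKN1A (p21), a CDK2 inhibitor, rose in both lines, by 0.57 in A-498 and 0.82 in ACHN on the log2 scale. Its 786-O levels were 21.7 and 14.3 CPM in control and mimic. Both RB1 relatives fell in A-498, RBL2 by 0.44 and RBL1 by 0.20 on the log2 scale, whereas in ACHN RBL2 rose by 0.16 and RBL1 gave no call.

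Of the 7 genes for the turnover of p27 and cyclins, 2 fell and 1 rose in A-498, and 1 fell and 3 rose in ACHN. With so few genes, the A-498 counts lay near or below the all-gene shares of 27% lower and 25.5% higher, and those in ACHN stood beside 14.4% and 17.3%. SKP2, the ubiquitin ligase subunit that marks p27 for destruction, fell from 114 ± 4.06 to 63.5 ± 1.53 CPM with the mimic in A-498 (SD, n = 2, log2 fold change -0.85, edgeR adjusted p = 1.26e-09). It rose by 0.17 with the inhibitor in ACHN (edgeR adjusted p = 0.00589) and had 227 and 127 CPM in the 786-O control and mimic. FBXW7, the subunit that directs the turnover of cyclin E, rose in both lines, by 0.54 in A-498 and 0.40 in ACHN. In 786-O it had 23.6 and 14.3 CPM. Among the 4 genes for CDK activation, CDC25A, the phosphatase that activates CDK2, rose by 0.50 in A-498 as the only call, and fell by 0.20 in ACHN together with CCNH (by 0.22).

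Of the 10 E2F and DP genes, 3 fell and 4 rose in A-498 (all genes 27% and 25.5%), and 7 fell and 2 rose in ACHN (all genes 14.4% and 17.3%). The A-498 falls were thus near the all-gene share. In A-498 the largest changes were those of E2F5 (0.92), a repressive E2F, and TFDP2 (-0.54), a dimer partner. In ACHN they were those of E2F2 (-1.05), an activating E2F, and E2F8 (-0.99), an atypical repressor. With the mimic in A-498 E2F8 fell as well (-0.43, edgeR adjusted p = 0.000175), and E2F2 gave no call (-0.17). Their 786-O log2 ratios were 1.67 (E2F2) and 0.94 (E2F8). The S-phase genes that E2F drives moved more uniformly. Of 19, 15 fell and 1 rose in A-498 (median log2 fold change -0.45), where 27% of all genes fell and 25.5% rose with a median of 0.0045. In ACHN 16 fell and 1 rose (median -0.28), where 14.4% of all genes fell and 17.3% rose with a median of 0.0038. In A-498 CDC6, a helicase loader, fell by 0.96 and CCNA2, the S-phase cyclin, by 0.92, and PCNA, named after its value was seen, was the riser (0.14). In ACHN MCM6, a helicase subunit, fell by 0.69 and RRM2, a ribonucleotide reductase subunit, by 0.55, and CCNA2 was the riser (0.13). In 786-O, with 1 library per group, 4 of the 19 had a ratio below 1 and 15 above it. The median log2 ratio was 0.14, beside -0.0060 over all genes. None differed by 2-fold, where 8.96% of all genes were at least 2-fold lower and 6.73% higher.

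**Figure D5:**
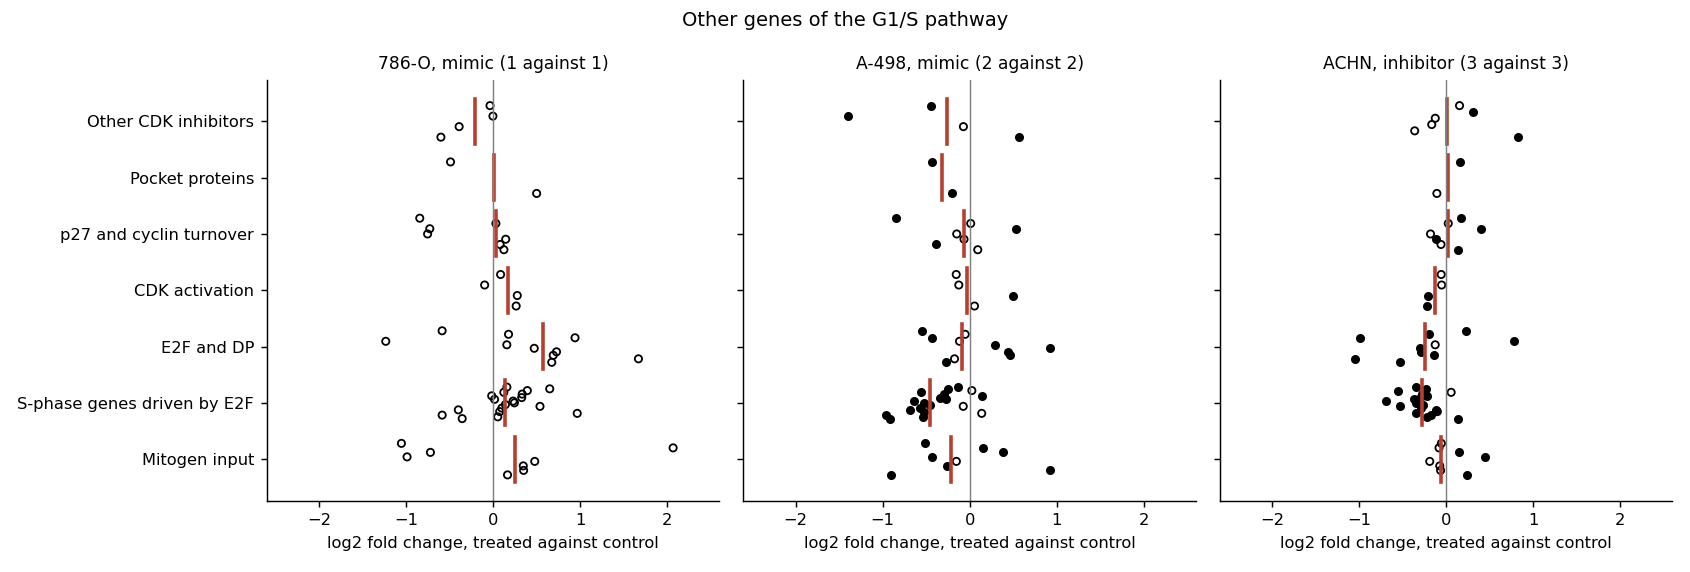
Log2 fold change of the other G1/S genes by list, treated against control, with 1 panel per line. Filled circles passed an adjusted p under 0.05, open circles did not (786-O was not tested), and red lines mark the median, which lies at -0.45 in A-498 and -0.28 in ACHN for the S-phase genes.

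Of 8 tested genes for mitogen input, 4 fell and 3 rose in A-498 (all genes 27% and 25.5%), and none fell and 3 rose in ACHN (all genes 14.4% and 17.3%). EGFR, a growth factor receptor, fell by 0.90 in A-498 (edgeR adjusted p = 6.21e-11) and rose by 0.23 in ACHN. In 786-O, EGFR had a log2 ratio of 0.17 with the mimic. FOSL1, an AP-1 subunit, rose by 0.93 in A-498. FOXO3, a transcription factor that growth signals restrain, rose by 0.44 in ACHN. With the mimic FOXO3 fell in A-498 (log2 fold change -0.43, edgeR adjusted p = 6.11e-06), and its 786-O log2 ratio was -0.99.

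Likeness to CDK6 was measured as Pearson's r over the 12 libraries in log2 CPM, after the mean of each line was subtracted, among the 8749 genes whose mean log2 CPM reached 3 in each line. The values are a description, since 1 library pair, that of 786-O, holds the largest CDK6 difference. The closest 5 genes were MB21D2 (r = 0.998), CYP1B1, MARCKS, SLC25A13 and LINC00511 (r = 0.997 for LINC00511). SLC25A13, a mitochondrial aspartate-glutamate carrier, had log2 fold changes of -1.41 in A-498 and 0.44 in ACHN, with a 786-O log2 ratio of -2.24. Of the 4 protein-coding genes among the 5, SLC25A13 had a full seed match in the canonical 3′ UTR, MB21D2 and CYP1B1 had GGTGCT alone and MARCKS had no match. CCND2 and CCNE1 did not reach that level in each line and were not compared. Among the other G1 genes, CDK2 had the highest r with CDK6 (0.890), but 1093 of the 8749 genes, CDK6 itself included, lay above it. CDK4 had 0.546, and CCND1 (-0.891), CCND3 (-0.826) and CDKN1B (-0.788) lay at the other end.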

How the data were processed

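RNA-seq counts of 12 libraries were analysed. According to the study's methods, stranded libraries were made after ribosomal RNA depletion, paired reads were aligned to GRCh38 with HISAT2, and HTSeq-count assigned them to Ensembl v87 genes in strict intersection mode (versions are not given in the sources used here). The authors deposited raw counts, without normalisation. Per table there were 58051 genes, and GENCODE v44 gave a name to 56948 (98.1%). A further 5 lines of unassigned reads were 37.2% to 48.0% of all reads and were left out. The 3 deposited tables of the authors' own DESeq2 comparisons (fold changes and p-values) were not used. Intersection with exons discards reads shared by genes of the same strand. The member genes overlap other counted genes mainly on the opposite strand (for example CDK2 with PMEL, CCND1 with LTO1 and RB1 with LPAR6). Counting by strand would separate these, but the study's methods do not give the strand setting of HTSeq-count.

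Groups came from the sample labels. Counts were tested with edgeR 4.0.16 in R 4.3.3 (TMM, filterByExpr by group, quasi-likelihood test, two-sided, Benjamini-Hochberg over all genes tested, calls at an adjusted p under 0.05), in each line by itself. The SE is the log2 fold change divided by the square root of F. The 786-O log2 ratios used a prior count of 2 and genes with at least 10 counts. The mimic effects in 786-O and A-498 were compared as an interaction. Levels per kb used the union of exons in GENCODE v44, which is newer than the counting annotation but on the same build. Shares were compared by exact permutation with scipy 1.17.1. No molecular identifiers are described, so counting intervals and limits cover counting error only. The estimated biological coefficient of variation came to 3.83% (A-498) and 5.25% (ACHN), and every replicate pair differed by more than counting error.

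The members and lists were chosen with earlier results of these data known, and 1 renal marker is not reported here. The genes named are the 10 members, the called genes of each list with the largest absolute change (at most 2 per list and line) and the 5 genes most like CDK6. Alternatives were library size alone, RLE size factors, no filter, DESeq2 1.42.0, 1 fit over all libraries, a replicate block, a fixed coefficient of variation, other lengths, and each library left out in turn. Counts with known changes were simulated, with 100 genes changed at each size and 1 dispersion for all genes of a comparison. In the interaction 786-O had the spread of A-498, so the rates need not hold in the real data. At 0.5 and 1 (log2) edgeR recovered 88% and 99% for A-498 (19292 genes) and 98% and 99% for ACHN (17694 genes). It recovered 93% and 100% for the controls (18978 genes) and 57% and 92% for the interaction (21139 genes). Of the calls, 3.11%, 5.29%, 5.39% and 3.87% were false, in the same order.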

Additional observations from a re-analysis of the deposited data

Results flagged for a closer look

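For 7 of 9 G1 genes, edgeR's interaction over 6 libraries found unequal effects of the mimic in 786-O and A-498. The difference (786-O minus A-498, log2) was -1.12 for CDK6, 0.37 for CDK4, 0.427 for CDK2, 2.39 for CCND3, 0.714 for CCNE2, 0.865 for CDKN1B and 0.22 for RB1. Over all genes, 29.6% were called in either direction. Every 786-O value rests on a single control and a single mimic library, and the biological coefficient of variation of 786-O is assumed to be that of A-498. When that coefficient of variation was set to 0.2, CCND3 alone was called. The call for RB1 was lost without A-498 control 3 (0.086), mimic 1 (0.18) or mimic 2 (0.18), and that for CDK4 without mimic 1 (0.28).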

How the results depend on the processing

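Every call of the A-498 comparison held under library size alone, RLE factors, no filter, DESeq2 and 1 fit over all libraries, and with any 1 library left out. In ACHN the same held except for CCND3, whose call was lost without control 1, control 2 or inhibitor 2, as given above. Signs changed only among values without a call. In A-498 they were CDKN1B (-0.0025 without the filter, -0.020 to 0.052 with 1 library left out) and RB1 (0.063 with library size alone, -0.069 to 0.025 with 1 library left out). In the interaction CCND1 was -0.057 with library size alone and ranged from -0.045 to 0.041 with 1 library left out. With 1 library left out, the A-498 share difference ranged from -0.0177 to 1.03 percentage points for CCND1 and from -1.03 to 0.0166 for CCND3. With the coefficient of variation fixed at 0.2 the interaction called 0 members lower and 1 higher, and over all genes 182 lower and 99 higher in place of 2972 and 3723. Leaving out 1 A-498 library gave 2409 to 4252 higher over all genes, the lowest without mimic 1. Library size alone gave 3931 lower and 2796 higher there, and 4352 lower and 6191 higher in A-498 in place of 5313 and 5015. The cause of these shifts was not tested.

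The replicate block in ACHN, where the labels share numbers but nothing ties them to a batch, left 2 members lower and 4 higher and gave 2638 lower and 3125 higher over all genes (2578 and 3102 without it). Same-numbered deviations correlated at 0.405, -0.147 and -0.0133, and it changed no call of a member. No paired analysis was possible because the A-498 groups share 1 number and 786-O has 1 library per group. Depth limits CCND2 in 786-O and A-498 to the bounds given above.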
